A study of Mus musculus with 36 samples.

Results

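The interleukin-1 family described here consists of 9 genes: the agonist ligands Il1a, Il1b, Il18 and Il33, the receptor antagonist Il1rn, the soluble binding protein Il18bp, the decoy receptor Il1r2, and the signalling receptor Il1r1 with its accessory chain Il1rap. They were taken by gene symbol from a table of 55421 mouse genes, and 9 of 9 were among the 19478 genes that passed the filter on low counts. The family was chosen by its measured response: the large difference of Il1b and Il1rn between stimulated and sham slices was known when the 9 genes were picked. The stimulated-against-sham values, calls included, are therefore given as a description from which nothing is concluded, whereas genotype and treatment were compared by tests. The members were picked with earlier results of these data known, but the genotype and treatment contrasts were not used to choose them.

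RNA was sequenced from mouse hippocampus, in 36 libraries that made 32 samples from 18 mice after libraries with the same mouse and stimulation labels had been added together. Wild-type mice were C57BL/6, and T41B mice were Line 41 of the Thy1-hAPP model, in which human amyloid precursor protein with the London and Swedish mutations is driven by the neuronal Thy1 promoter. Mice of both genotypes were gavaged with vehicle or with BD10-2 (labelled PTX-BD10-2, a small molecule that acts on the neurotrophin receptors TrkB and TrkC) for 3 months, from 13 to 16 months of age. Slices of the right hippocampus received theta-burst stimulation, 3 trains of 10 bursts with 4 pulses at 100 Hz in each burst and 200 ms between bursts, or a sham procedure that lasted as long, and were flash frozen at once. All 8 groups therefore share age, gavage, slicing and time in the recording set-up. On vehicle, each state (sham or stimulated) was measured in 4 wild-type and 4 T41B mice, and on BD10-2 in 3 wild-type and 5 T41B mice. For 14 mice both a sham and a stimulated slice were sequenced. The labels used here do not give the sex of the mice.

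Interleukin-1 alpha and beta bind the same receptor, IL1R1, which signals once the accessory protein IL1RAP joins the complex, through MYD88, IRAK kinases and TRAF6 to NF-kappaB. The antagonist encoded by Il1rn occupies IL1R1 without recruiting IL1RAP, and IL1R2 binds the ligands but lacks the signalling domain. Interleukin-1 beta and interleukin-18 are made as precursors that caspase-1 cleaves in inflammasomes, and interleukin-18 is neutralised by the protein of Il18bp. Interleukin-33 is a nuclear alarmin released from damaged cells. In the brain, microglia are the main known source of interleukin-1, and interleukin-33 is made by oligodendrocytes and astrocytes.

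The upstream windows of the 3 genes with the largest stimulated-against-sham differences are shown because these genes moved together across the samples. They are the 250 bases before the annotated start, from RefSeq on GRCm38.p6. A promoter entry was found for 9 of 9 genes, with 13 start sites in all. Il1a and Il1b are neighbours on the minus strand of chromosome 2 (Il1a gene body chr2:129299610-129309972, Il1b gene body chr2:129364570-129371139), and their windows are chr2:129309973-129310222 and chr2:129371140-129371389. Il1rn lies on the plus strand of the same chromosome (chr2:24336853-24351494), and the window belongs to the most upstream of its 3 annotated starts, chr2:24336610-24336859. Capitals mark matches to the motifs searched.
Il1a: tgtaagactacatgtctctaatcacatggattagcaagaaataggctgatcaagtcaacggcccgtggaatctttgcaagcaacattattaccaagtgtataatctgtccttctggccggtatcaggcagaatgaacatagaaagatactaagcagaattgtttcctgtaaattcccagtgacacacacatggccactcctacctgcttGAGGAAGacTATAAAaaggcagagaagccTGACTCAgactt
Il1b: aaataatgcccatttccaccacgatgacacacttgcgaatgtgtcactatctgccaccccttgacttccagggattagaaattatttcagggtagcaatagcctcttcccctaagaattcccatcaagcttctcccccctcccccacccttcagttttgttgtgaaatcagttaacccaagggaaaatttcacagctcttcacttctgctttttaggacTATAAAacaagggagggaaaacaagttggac
Il1rn: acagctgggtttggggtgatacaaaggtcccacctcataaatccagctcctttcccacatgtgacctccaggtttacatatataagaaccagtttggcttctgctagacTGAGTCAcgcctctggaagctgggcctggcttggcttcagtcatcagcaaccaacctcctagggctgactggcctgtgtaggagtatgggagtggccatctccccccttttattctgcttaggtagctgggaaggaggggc

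The motifs were a TATA box (TATAAA, sense strand only), AP-1 (TGANTCA), CRE (TGACGTCA), C/EBP (TTGCNNAA), PU.1 (GAGGAAG) and the kappaB decamer, the last 5 on both strands. The Il1a window holds a TATA match at -32 to -27, a PU.1 match at -41 to -35 and an AP-1 match at -12 to -6, counted from the start site. In the Il1b window only the TATA match at -31 to -26 was found. The Il1rn window holds an AP-1 match at -141 to -135, and none of the motifs was found at its other starts. Of 32851 windows of the same length, 7.59% held the TATA letters, 6.75% AP-1, 1.55% CRE, 9.56% C/EBP, 10.6% PU.1 and 3.9% kappaB. Among the other members, Il33 had TATA matches at both of its starts and a C/EBP match at one, Il18bp and Il1r1 had a C/EBP match, and Il1r1 had a kappaB match at its second start. These matches describe letters and say nothing of binding.

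Libraries held between 11597555 and 28125842 expected counts (median 18082415). Thy1, which the transgene cassette adds to, was 253 to 403 CPM (the count scaled to the effective library size) across 16 wild-type libraries, and 20 T41B libraries had 918 to 2504 CPM. Neuronal Snap25 averaged 564 to 967 CPM per group. Of the libraries that were added together, both labelled as the stimulated slice of Mouse1592 stood apart from each other: one held 918 CPM of Thy1, 115 of Il1b and 42.7 of Il1rn, the other 1937, 348 and 121 CPM. The sham libraries of Mouse1565 differed in Il1r1 (20.2 and 10.5 CPM) and Il1rap (97.9 and 61.9 CPM). Those of Mouse1557, a T41B mouse on BD10-2, differed in Il1b (0.257 and 1.87 CPM) and Il33 (55.1 and 82 CPM). Each batch label holds 1 treatment, so batch and treatment cannot be told apart. Batch E held wild-type mice only, and batches G and H held T41B mice only.

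Baseline levels were compared between genes per kilobase of annotated exon, in sham slices of vehicle-treated wild-type mice. Il33 stood highest at 15 CPM per kb (range 11.2 to 17.7 over 4 mice), and Il1a followed at 11.1 (9.86 to 12.3), so the ranges overlapped. Il1rap (6.35, range 5.36 to 8.10) and Il18 (5.82, range 5.12 to 6.29) also overlapped, and Il18bp (3.05) and Il1r1 (1.78) came next without overlap. The bottom of the order held Il1b at 0.163 (0.113 to 0.231) and Il1r2 at 0.112 (0.0378 to 0.186), which overlapped, and Il1rn at 0.0175 CPM per kb (0.0104 to 0.026). Il1rn at this level meant 1 or 2 counts per sample.
In stimulated slices of BD10-2-treated T41B mice the order was different. Il1b (248 CPM per kb, range 126 to 388) and Il1a (206, range 126 to 317) stood at the top with overlapping ranges, followed by Il1rn at 71.2 (15.4 to 128) and Il33 at 26.5 (19 to 35.3). Il1rap (8.20), Il18 (6.16), Il18bp (4.64) and Il1r1 (3.81) kept their order of the wild-type sham slices, each range overlapping the next, and Il1r2 was lowest at 0.325 CPM per kb.

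**Figure D1:**
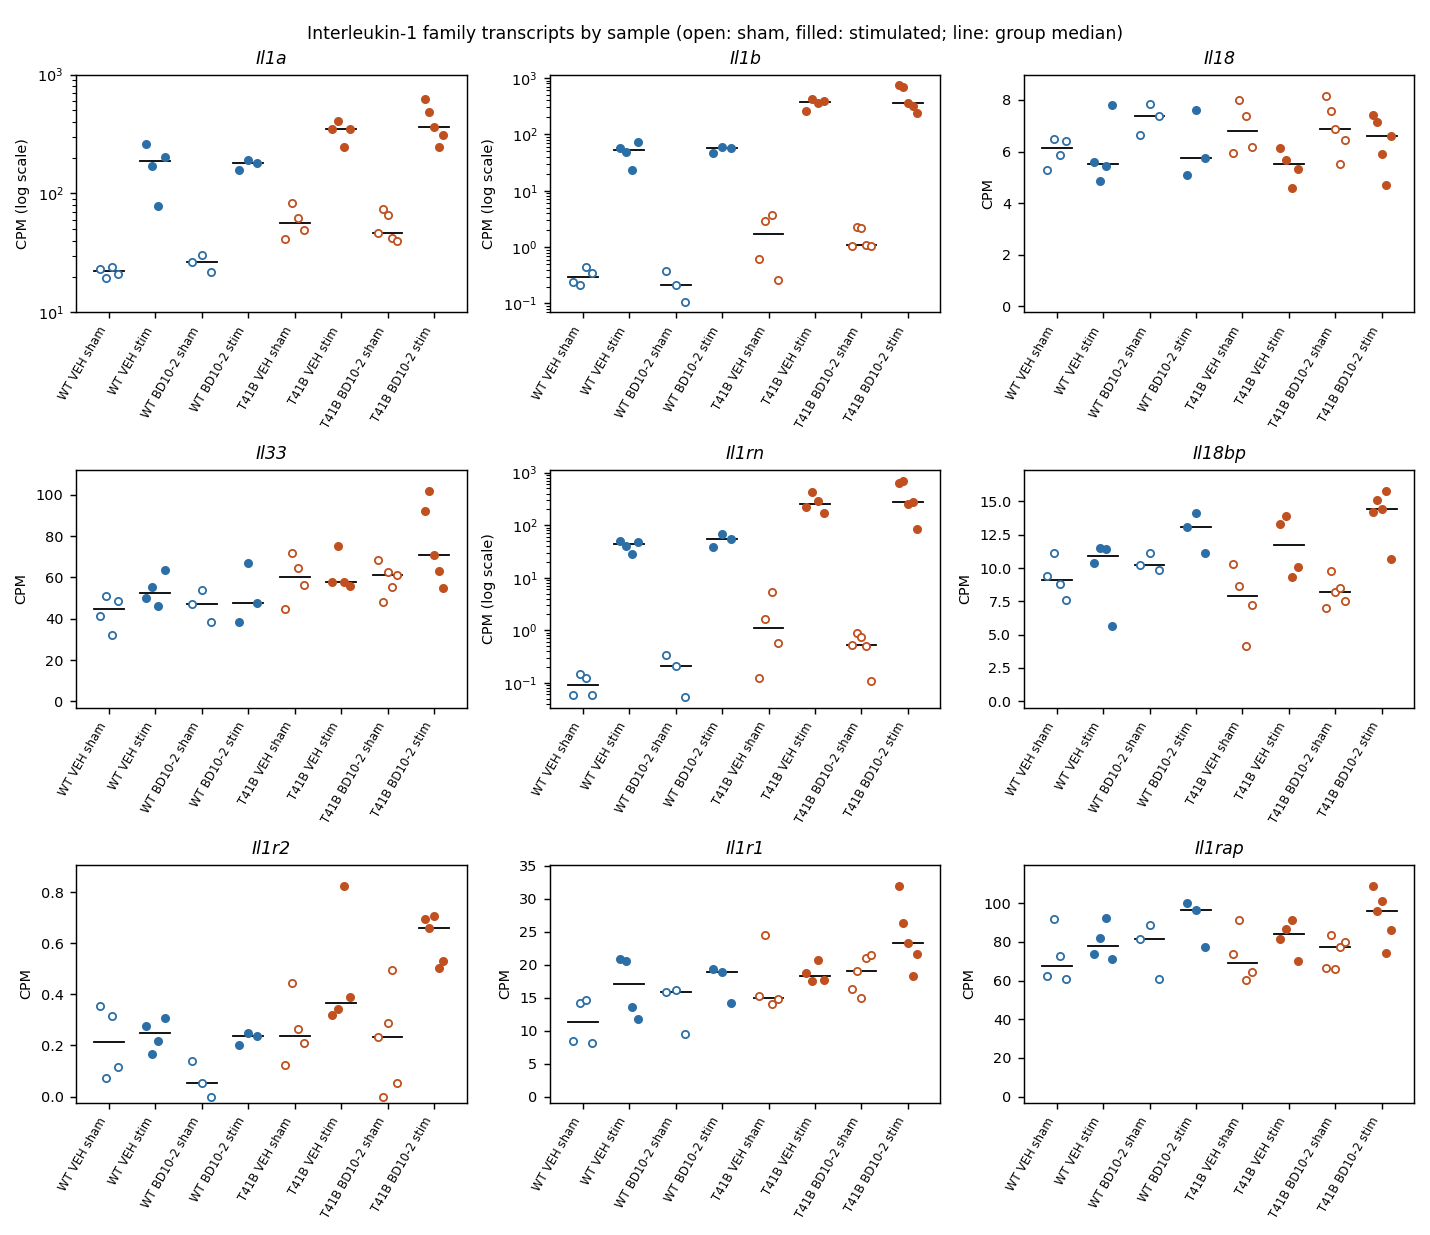
CPM of each of the 9 genes by group, 1 point per mouse, open for sham and filled for stimulated slices, blue for wild-type and red-brown for T41B, with a line at the group median. The vertical axis is logarithmic for Il1a, Il1b and Il1rn and linear for the others. Il1a, Il1b and Il1rn separate by stimulation in every combination of genotype and treatment, whereas the points of Il18, Il33, Il1r1 and Il1rap in sham and stimulated slices overlap.

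Stimulated slices held more Il1b, the secreted agonist, than sham slices in every mouse measured in both states. In vehicle-treated wild-type mice Il1b was 0.237, 0.216, 0.44 and 0.346 CPM in the sham slices of Mouse1509, Mouse1513, Mouse1522 and Mouse1524, and 58.4, 47.9, 23.2 and 73.8 CPM in their stimulated slices. In vehicle-treated T41B mice the sham slices of Mouse1510, Mouse1551, Mouse1553 and Mouse1579 held 0.625, 2.86, 3.77 and 0.262 CPM and the stimulated slices 255, 425, 358 and 384 CPM. The sham and stimulated values did not overlap in either genotype, and among these T41B mice the sham values spread over a wider fold range than the stimulated ones. In BD10-2-treated wild-type mice Il1b was 0.374, 0.209 and 0.108 CPM in sham slices and 46.9, 60.4 and 57.1 CPM in stimulated slices. In BD10-2-treated T41B mice it was 1.06, 2.23, 2.14, 1.07 and 1.06 CPM in sham slices and 740, 703, 358, 321 and 241 CPM in stimulated slices. The fitted log2 fold changes were 7.32 (SE 0.90), 7.53 (SE 0.46), 7.60 (SE 0.86) and 8.31 (SE 0.43) in the order vehicle wild-type, vehicle T41B, BD10-2 wild-type and BD10-2 T41B. Because the sham counts were low, 20 in all in vehicle-treated wild-type mice, the pooled count ratio there was 156 with a 95% counting interval of 101 to 256. Without Mouse1565, which gave 19 of the 25 sham counts in BD10-2-treated wild-type mice, the log2 fold change of Il1b there was 8.46.

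Il1rn, the antagonist, also stood at low CPM in sham and high CPM in stimulated slices. In sham slices of vehicle-treated wild-type mice it was 0.0593, 0.144, 0.126 and 0.0577 CPM, and in stimulated slices 50.9, 41, 28 and 47.8 CPM. The sham groups of the other 3 combinations ranged from 0.125 to 5.26 CPM (vehicle T41B), 0.0541 to 0.335 CPM (BD10-2 wild-type) and 0.106 to 0.881 CPM (BD10-2 T41B). No sham sample of Il1rn reached the lowest stimulated one, 28 CPM. Stimulated slices held 219, 428, 292 and 172 CPM in vehicle-treated T41B mice, 38.9, 69 and 55.5 CPM in BD10-2-treated wild-type mice, and 647, 708, 251, 279 and 85.3 CPM in BD10-2-treated T41B mice. The fitted log2 fold changes were 8.71 (SE 1.97), 7.16 (SE 0.59), 7.77 (SE 1.15) and 9.48 (SE 0.74). Against 6 sham counts in vehicle-treated wild-type mice the pooled count ratio was 440, with a 95% counting interval of 202 to 1201. Single mice supplied most sham counts elsewhere: 99 of 145 in vehicle-treated T41B mice came from Mouse1553 and 17 of 22 in BD10-2-treated wild-type mice from Mouse1565. Without these mice the log2 fold changes of Il1rn were 8.37 and 8.79. Counting intervals cover counting error only.

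Il1a, the agonist that is active without caspase-1 cleavage, was already abundant in sham slices and differed less. It was 23.1, 19.5, 24.3 and 21.1 CPM in sham and 261, 171, 78.5 and 204 CPM in stimulated slices of vehicle-treated wild-type mice. In vehicle-treated T41B mice it was 41.3, 83.8, 62.8 and 49.7 CPM in sham and 351, 409, 248 and 346 CPM in stimulated slices. The groups did not overlap, and Mouse1522 had both the highest sham and the lowest stimulated value of the wild-type mice on vehicle. Under BD10-2 the wild-type values were 26.3, 30.3 and 22 CPM against 157, 192 and 181 CPM, and the T41B values 46.7, 73.4, 65.8, 42.5 and 39.6 CPM against 626, 484, 364, 248 and 309 CPM. The fitted log2 fold changes were 3.02 (SE 0.28), 2.51 (SE 0.27), 2.76 (SE 0.32) and 2.92 (SE 0.25).

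**Figure D2:**
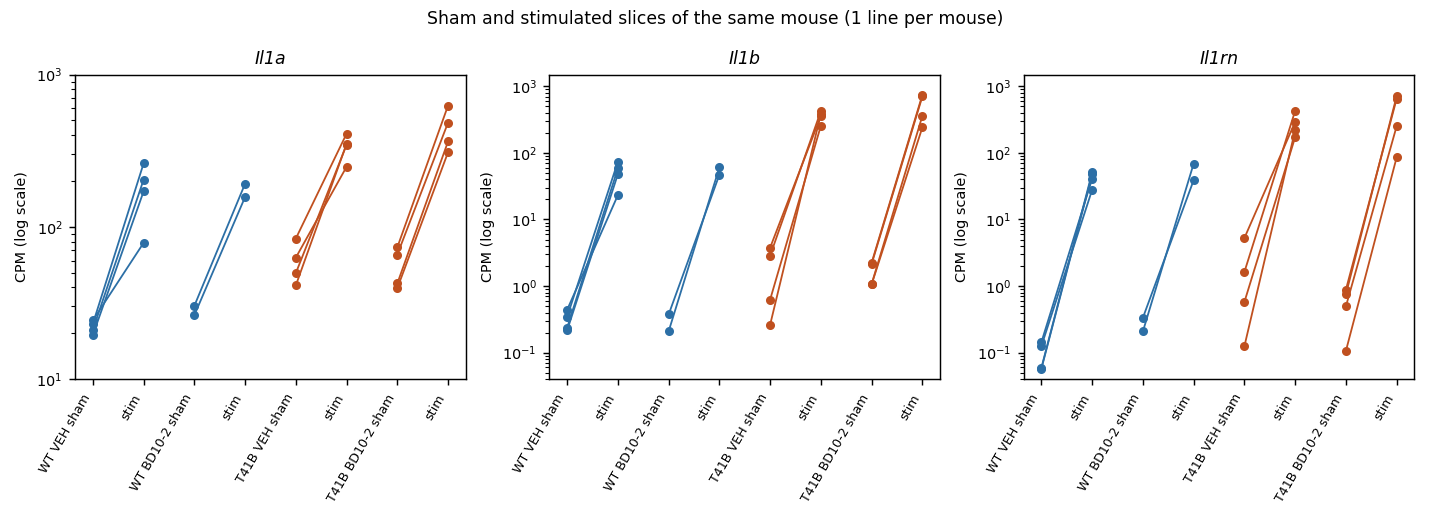
CPM (log scale) of Il1a, Il1b and Il1rn in the sham and the stimulated slice of the same mouse, 1 line per mouse, for the 14 mice with both, blue for wild-type and red-brown for T41B. Each of the lines goes up in all 3 panels, 14 of 14 mice for each gene.

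Within mice, the stimulated-minus-sham difference in log2(CPM + 1) averaged 6.44 for Il1b (SD 1.23, range 4.07 to 8.25), 6.42 for Il1rn (SD 1.29, range 4.69 to 8.66) and 2.75 for Il1a (SD 0.50, range 1.65 to 3.45) over the 14 mice. For Il1b it averaged 5.20 (vehicle) and 5.39 (BD10-2) in wild-type and 7.14 and 7.49 in T41B mice. The added 1 CPM exceeded every wild-type sham value of Il1b and Il1rn, so these differences depend on it and are smaller than the fitted ones. The fitted responses of Il1b lay closer together between genotypes, at 7.32 (vehicle) and 7.60 (BD10-2) in wild-type and 7.53 and 8.31 in T41B mice. The smallest Il1a and Il1b differences both came from Mouse1522, a wild-type mouse on vehicle. Il18bp was higher in 13 of 14 mice with a mean difference of 0.40, and Il1r1 (0.35) and Il1rap (0.23) in 12 of 14. Il33 was higher in 10 and lower in 4 mice (mean 0.24), and Il18 higher in 6 and lower in 8 (mean -0.11). Il1r2 was at or under 3 counts in 8 of the 32 samples, so its mean difference of 0.23 rests on few reads.

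The other members differed little or in some groups only. Il18bp averaged 8.20 ± 1.07 CPM in sham and 14 ± 1.98 CPM in stimulated slices of BD10-2-treated T41B mice (SD, n = 5 each), with 6.98 to 9.80 CPM against 10.7 to 15.8 CPM and no overlap, whereas the vehicle wild-type groups held 9.22 ± 1.45 and 9.72 ± 2.76 CPM (SD, n = 4 each) and overlapped. Il1r2 reached at most 0.825 CPM in any sample. Its BD10-2 T41B values were 0, 0.053, 0.232, 0.289 and 0.495 CPM in sham and 0.502, 0.532, 0.659, 0.697 and 0.707 CPM in stimulated slices. Il1r1 was 11.3 ± 3.57 and 16.7 ± 4.69 CPM in sham and stimulated slices of vehicle-treated wild-type mice (SD, n = 4 each), and its range overlapped in all 4 combinations. Il18 stayed between 4.57 and 8.17 CPM in the 32 samples, and Il1rap between 60.3 and 109 CPM.

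As a description, edgeR called 3, 4, 3 and 5 of the 9 genes higher in stimulated slices in the order vehicle wild-type, vehicle T41B, BD10-2 wild-type and BD10-2 T41B, where 8.21%, 11.7%, 6.29% and 13.3% of the 19478 genes tested were called higher. A gene was called at an adjusted p under 0.05. Il1a, Il1b and Il1rn made up the calls in wild-type mice, Il18bp was added in both T41B groups and Il1r2 under BD10-2. The Il18bp call on vehicle was lost in 2 of 9 alternative fits and in 3 of 4 fits with a mouse left out (adjusted p up to 0.121). No member was called lower, against 4.10%, 9.83%, 2.58% and 9.52% of all genes. Since the family was picked on this contrast, nothing is read from these counts.

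In stimulated slices Il1a, Il1b and Il1rn were called higher in T41B than in wild-type mice under both treatments. In sham slices Il1a was called under both treatments, Il1rn under vehicle only, and Il1b under neither. Il1b rose most, 6.99-fold under vehicle and 8.62-fold under BD10-2 in stimulated slices, while Il1rn was 6.62-fold and 7.24-fold higher. The receptor genes Il1r1, Il1rap and Il1r2 and the ligands Il18 and Il33 were not called in any of the 4 genotype comparisons of the main fit. In stimulated slices under BD10-2, alternative fits and fits with a mouse left out called up to 4 members. T41B-against-wild-type calls numbered 2 of 9 members (sham, vehicle), 3 (stimulated, vehicle), 1 (sham, BD10-2) and 3 (stimulated, BD10-2). Over all genes, 5.0%, 4.74%, 4.31% and 8.19% were called higher in these comparisons. None of the members was called lower, against 1.24%, 1.05%, 1.14% and 2.36% of all genes. The median log2 fold change of the 9 members was 0.46, 0.26, 0.42 and 0.59, and that of all genes tested was 0.0014, -0.026, 0.0071 and -0.02.

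In stimulated slices on vehicle, the 4 T41B values of Il1b listed above, from 255 to 425 CPM, all lay above the 4 wild-type values, from 23.2 to 73.8 CPM. The log2 fold change was 2.81 (SE 0.34, 95% interval 2.10 to 3.51, edgeR adjusted p = 9.76e-06). Under BD10-2, 241 to 740 CPM in 5 T41B mice stood against 46.9 to 60.4 CPM in 3 wild-type mice, an increase of 3.11 log2 units (SE 0.36, 95% interval 2.38 to 3.84, edgeR adjusted p = 5.32e-06). These calls held in every alternative fit and with each mouse left out. In sham slices Il1b missed the threshold, with 2.60 (95% interval 0.66 to 4.54, edgeR adjusted p = 0.0518) under vehicle and 2.40 (0.58 to 4.22, edgeR adjusted p = 0.0702) under BD10-2. The sham values under vehicle overlapped, since Mouse1579 held 0.262 CPM, whereas those under BD10-2 did not. That separation rests on added libraries, since those of Mouse1557 held 0.257 and 1.87 CPM. The first of these lies within the wild-type range of 0.108 to 0.374 CPM. DESeq2 called both sham differences, with adjusted p of 0.000951 and 0.00133. Of the alternative fits, DESeq2 included, 4 of 8 changed the outcome under vehicle and 2 of 9 under BD10-2. With a mouse left out it changed in 2 of 8 fits under vehicle and 0 of 8 under BD10-2. Over all these fits the adjusted p reached 0.476 and 0.431. On vehicle the higher sham values, 2.86 and 3.77 CPM, both came from batch G, which held T41B mice only.

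Il1rn in stimulated slices ranged from 172 to 428 CPM in T41B mice and from 28 to 50.9 CPM in wild-type mice on vehicle, an increase of 2.73 log2 units (SE 0.44, edgeR adjusted p = 0.000276). Under BD10-2 it ranged from 85.3 to 708 CPM against 38.9 to 69 CPM, an increase of 2.86 log2 units (SE 0.45, edgeR adjusted p = 0.000241). The groups did not overlap under either treatment. In sham slices on vehicle the T41B values of Il1rn were 0.125, 1.63, 5.26 and 0.577 CPM, from 2, 33, 99 and 11 counts, and 1 of them lay within the wild-type range. Its log2 fold change of 4.28 (95% interval 0.18 to 8.38, edgeR adjusted p = 0.0486) passed narrowly, and the pooled count ratio was 20.9 with a 95% counting interval of 9.35 to 57.8. Without Mouse1553, which had most of the counts, it was 3.05 with an adjusted p of 0.355, and leaving out any 1 of 6 of the 8 mice ended the call. The call of Il1rn was also lost without TMM (4.20, adjusted p = 0.0508) and with mouse as a random replicate block in limma-voom (3.09, adjusted p = 0.517), and the fit of the compared groups alone gave no value for it. In sham slices under BD10-2 the difference was 1.15 (95% interval -1.47 to 3.78, edgeR adjusted p = 0.651).

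Il1a was called in all 4 genotype comparisons. Sham slices on vehicle held 41.3 to 83.8 CPM in T41B and 19.5 to 24.3 CPM in wild-type mice, without overlap, an increase of 1.44 log2 units (SE 0.29, edgeR adjusted p = 0.0019) that stayed called in every alternative. Stimulated slices under BD10-2 held 248 to 626 CPM against 157 to 192 CPM, an increase of 1.20 log2 units (SE 0.28, edgeR adjusted p = 0.00613), which lost its call only without Mouse1565 (1.13, adjusted p = 0.0586). The remaining calls were less firm. In stimulated slices on vehicle, where 248 to 409 CPM overlapped 78.5 to 261 CPM, the increase of 0.92 log2 units (SE 0.27, edgeR adjusted p = 0.0411) was lost in a fit of the compared groups alone (adjusted p = 0.134) and when any 1 of 6 of the 8 mice was left out, with 0.67 (adjusted p = 0.162) without Mouse1522. In sham slices under BD10-2, 39.6 to 73.4 CPM stood against 22 to 30.3 CPM, an increase of 1.03 log2 units (SE 0.29, edgeR adjusted p = 0.0382). This call was lost with batch as a covariate (0.66, adjusted p = 0.183), with mouse as a random replicate block (0.94, adjusted p = 0.0778) and without a sham library of Mouse1565. It was also lost when any 1 of 5 of the 8 mice was left out.

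**Figure D3:**
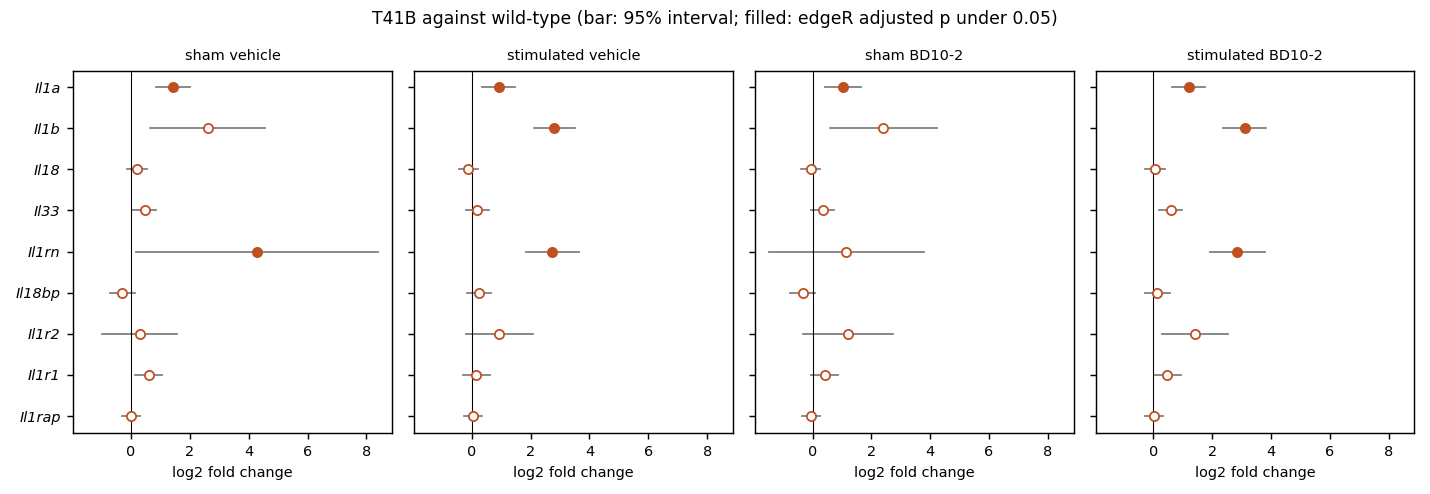
Log2 fold change of T41B against wild-type for the 9 genes in the 4 combinations of stimulation and treatment. Bars are 95% intervals and filled points passed an edgeR adjusted p under 0.05: Il1a in all 4 panels, Il1b in both stimulated panels, and Il1rn in these and in sham slices on vehicle, where its interval runs from 0.18 to 8.38.

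For the members that were not called, the intervals bound the difference. Il1rap differed by 0.01 (95% interval -0.29 to 0.31), 0.05 (-0.25 to 0.34), -0.05 (-0.35 to 0.26) and 0.03 (-0.28 to 0.33) in the order sham vehicle, stimulated vehicle, sham BD10-2 and stimulated BD10-2. Il18 differed by 0.20, -0.12, -0.06 and 0.06, with intervals that lay between -0.45 and 0.53. Il18bp differed by -0.29 (-0.71 to 0.14), 0.26 (-0.16 to 0.67), -0.34 (-0.77 to 0.09) and 0.14 (-0.28 to 0.56), and in sham slices under BD10-2 its groups did not overlap (means of 8.20 CPM in T41B and 10.4 CPM in wild-type mice). Il33 was 0.46, 0.19, 0.35 and 0.59 log2 units higher in T41B slices, and the last, from 54.8 to 102 CPM against 38.3 to 67.2 CPM, came nearest to the threshold (edgeR adjusted p = 0.0519). Il1r1 was 0.60 (95% interval 0.15 to 1.06) log2 units higher in sham slices on vehicle, with an edgeR adjusted p of 0.11. Il1r2 was 1.41 (0.28 to 2.54) log2 units higher in stimulated slices under BD10-2, with an edgeR adjusted p of 0.0965. It reached 10 counts in stimulated T41B samples only, so it passed the filter through the group in which it was high, and nothing is read from this difference.

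Batches that held both genotypes under the same treatment and stimulation gave the same direction for the called differences in stimulated slices. In log2(CPM + 1), T41B minus wild-type was 3.40 (batch A), 2.36 (batch C) and 2.65 (batch I) for Il1b, 2.92, 1.82 and 2.33 for Il1rn, and 2.15, 0.76 and 0.79 for Il1a, from 1 or 2 mice per genotype. In sham slices the differences of Il1a were 0.74 (A), 1.20 (C), 0.82 (D) and 0.57 (I). Sham levels of Il1b and Il1rn lay near or under the added 1 CPM, which shrinks such differences, so their CPM are given. T41B and wild-type sham slices held 0.625 and 0.44 CPM of Il1b in batch A, 0.262 and 0.346 in batch C, 1.06 and 0.108 in batch D, and 1.07 and 0.291 in batch I. For Il1rn on vehicle they held 0.125 and 0.126 CPM in batch A and 0.577 and 0.0577 CPM in batch C.

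Microglial markers, and some astrocyte markers, moved with genotype. As a background for the genotype counts, 5.0%, 4.74%, 4.31% and 8.19% of all genes were called higher in T41B mice. The order is sham vehicle, stimulated vehicle, sham BD10-2 and stimulated BD10-2. Of 8 oligodendrocyte markers 0, 0, 0 and 1 were called higher in T41B mice (median log2 fold changes 0.41, -0.15, 0.40 and 0.08), of 7 endothelial and pericyte markers 0 in each comparison, and of 4 perivascular macrophage markers tested 0, 0, 0 and 1. The summed level of 10 microglial markers was 312 CPM (range 278 to 367) in wild-type and 850 CPM (606 to 1138) in T41B sham slices on vehicle, and 161 CPM (126 to 207) and 409 CPM (338 to 497) in stimulated slices. Under BD10-2 the sums were 346 (307 to 375) and 894 CPM (756 to 1060) in sham slices and 168 (151 to 188) and 582 CPM (474 to 707) in stimulated slices. So the microglial sum was higher in T41B mice and lower in stimulated slices, where Il1b and Il1rn were higher. Of the 10 markers, 9, 6, 8 and 10 were called higher in T41B mice. After stimulation 7, 8, 8 and 7 were called lower, in the order vehicle wild-type, vehicle T41B, BD10-2 wild-type and BD10-2 T41B. The share of all genes called lower there was 4.10%, 9.83%, 2.58% and 9.52%. The defining marker Tmem119 averaged 25.1 CPM in sham and 2.22 CPM in stimulated slices of vehicle-treated T41B mice. In bulk tissue, fewer cells of a type and less RNA per cell cannot be told apart. The summed 7 astrocyte markers ranged from 1087 to 1951 CPM in wild-type and from 2234 to 5009 CPM in T41B slices. Of these 7, 3, 2, 2 and 6 were called higher in T41B mice, with median log2 fold changes of 0.31, 0.32, 0.45 and 0.51, and the highest single marker reached at most 689 CPM in the wild-type groups and 1991 to 3252 CPM in the T41B groups. The 10 neutrophil markers summed to 1.05 to 5.2 CPM in wild-type and 2.41 to 20.5 CPM in T41B samples, and 1 marker made up nearly all of it. The other 9 stayed under 1 CPM in each group, and Ly6g was at 0 in 7 of the 8 groups. S100a8 averaged 0.018 to 0.102 CPM per group. Of the 6 monocyte markers, 5 stayed under 1 CPM, with Ccr2 averaging at most 0.209 CPM. The 1 neutrophil marker that was tested was called higher in T41B mice in all 4 comparisons, and the 1 monocyte marker that was tested in both stimulated ones (log2 fold change 0.53 in each). After stimulation this neutrophil marker was called lower in all 4 comparisons (log2 fold changes -1.99, -2.18, -1.97 and -1.40), as most microglial markers were. Which cells held it was not tested. Of 8 neuronal markers 1, 2, 2 and 0 were called lower in T41B mice, with median log2 fold changes of -0.25, -0.20, -0.26 and -0.19, against 1.24%, 1.05%, 1.14% and 2.36% of all genes called lower. The 9 choroid plexus markers, a sign of adjoining tissue in a slice, summed to 16.3 to 1246 CPM in stimulated slices of vehicle-treated wild-type mice, where 9 of 9 were called higher than in sham slices, and to 19.3 to 301 CPM in those of T41B mice, where 4 of 9 were called lower than in wild-type mice. In sham slices on vehicle they summed to 20.2 to 24.9 CPM in wild-type and 19.8 to 538 CPM in T41B mice, with 1 of 9 called higher. Beside these counts, 8.21% of all genes were called higher after stimulation in vehicle-treated wild-type mice. In stimulated slices on vehicle 1.05% were called lower in T41B mice. The part of these cells in the differences above was not tested.

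No member passed the test of BD10-2 against vehicle in any combination of genotype and stimulation: edgeR called 0 of 9 members and 0% of the 19478 genes in the 4 comparisons. At an unadjusted p under 0.05 the members numbered 0 in sham wild-type, 0 in stimulated wild-type, 1 in sham T41B and 0 in stimulated T41B slices, against 1.92%, 5.61%, 2.21% and 3.9% of all genes. DESeq2 and limma-voom with mouse as a random replicate block called 0 members as well. In stimulated T41B slices the log2 fold change under BD10-2 was 0.41 (95% interval -0.25 to 1.07) for Il1b, 0.50 (-0.34 to 1.35) for Il1rn and 0.26 (-0.26 to 0.79) for Il1a. In stimulated wild-type slices it was 0.11 (-0.66 to 0.88), 0.38 (-0.61 to 1.36) and -0.01 (-0.62 to 0.59). The 5 stimulated T41B mice on BD10-2 spread widely, and Mouse1563 and Mouse1564 had the highest values of Il1a, Il1b, Il1rn, Il33 and Il1r1 in that group. These are the mice of batch H, so mouse and batch cannot be told apart in that spread. The single member past the unadjusted threshold was Il1rn in sham T41B slices, 0.515, 0.881, 0.751, 0.495 and 0.106 CPM under BD10-2 against 0.125, 1.63, 5.26 and 0.577 CPM under vehicle. The groups overlapped, the fitted difference was -1.81 (95% interval -3.54 to -0.09), and the edgeR adjusted p was 1.0.

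The stimulation response itself was compared between genotypes and between treatments as an interaction. EdgeR called 0 of 9 members and 0% of all genes for the genotype difference under vehicle, the genotype difference under BD10-2 and the BD10-2 difference in T41B mice, and DESeq2 called 0 members. At an unadjusted p under 0.05 there were 0, 0 and 1 members, against 8.64%, 4.34% and 2.7% of all genes. For Il1b the response of T41B mice exceeded that of wild-type mice by 0.21 log2 units under vehicle (95% interval -1.85 to 2.27) and by 0.71 under BD10-2 (-1.25 to 2.67). The corresponding values of Il1a were -0.51 (-1.32 to 0.29) and 0.17 (-0.66 to 0.99), and those of Il1rn -1.55 (-5.75 to 2.65) and 1.71 (-1.08 to 4.49). The wide intervals of Il1b and Il1rn come with sham counts as low as 1 per sample. Il1rn under BD10-2 in T41B mice was the member past the unadjusted threshold, with a difference of 2.32 (0.40 to 4.24) and an edgeR adjusted p of 1.0. This interaction uses the sham values of Il1rn listed above.

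The ratio of antagonist to agonist transcript, Il1rn to Il1b in CPM, was compared in stimulated slices, where both were abundant. It was 0.871, 0.855, 1.21 and 0.648 in wild-type and 0.857, 1.01, 0.817 and 0.447 in T41B mice on vehicle. Under BD10-2 it was 0.83, 1.14 and 0.971 in wild-type and 0.874, 1.01, 0.70, 0.87 and 0.354 in T41B mice. Most mice of both genotypes lay near equal CPM, and the lowest ratios belonged to Mouse1579 and Mouse1592, both T41B. The T41B-minus-wild-type difference of the log2 ratio, computed after adding 1 CPM to both genes, was -0.22 on vehicle (exact two-sided permutation p = 0.543, 0.724 after Benjamini-Hochberg adjustment over 4 tests) and -0.44 under BD10-2 (exact p = 0.304, adjusted 0.724), or -0.19 without Mouse1592. BD10-2 minus vehicle was 0.15 in wild-type mice (exact p = 0.543, adjusted 0.724) and -0.06 in T41B mice (exact p = 0.841, adjusted 0.841). The smallest p these group sizes allow is 0.0286, 0.0179, 0.0286 and 0.00794. Ratios in CPM are not ratios of molecules, as the annotated exons of Il1rn span 5535 bases and those of Il1b 1907 bases.

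**Figure D4:**
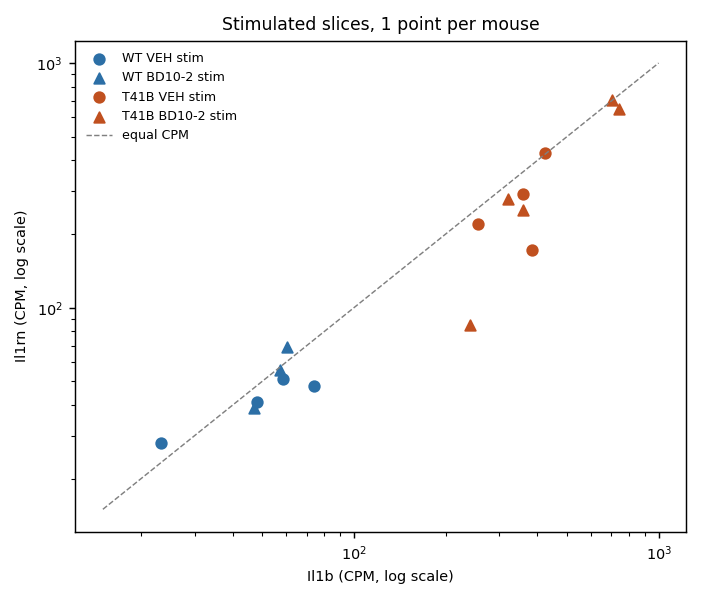
Il1rn against Il1b in stimulated slices, both in CPM on logarithmic axes, 1 point per mouse, circles for vehicle and triangles for BD10-2, blue for wild-type and red-brown for T41B, with a dashed line at equal CPM. Wild-type mice reach at most 73.8 CPM on either axis and T41B mice start at 85.3 CPM, with 85.3 CPM of Il1rn against 241 CPM of Il1b in Mouse1592 farthest below it.

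Across the 32 samples the log2(CPM + 1) of Il1b and Il1rn correlated with a Pearson r of 0.99, and those of Il1a and Il1b with 0.97. These points share groups, mice and libraries, and the groups alone give a high r. After the group means were subtracted r was 0.83 for Il1b and Il1rn, 0.79 for Il1a and Il1b and 0.76 for Il1r1 and Il1rap, the 3 highest of the member pairs, and the lowest was -0.27 for Il1b and Il18bp. Among 16184 other genes averaging at least 1 CPM, those most like Il1b over the 32 samples were Tnfaip2, Ripk2 and Ccl5 (r = 0.99 each), those most like Il1rn Oasl1, Ccl5 and Ripk2 (0.99 each), and those most like Il1a Tnfaip2, Ptafr and Ccl4 (0.98 each). After subtraction of group means Lcp2 was closest to Il1b (0.85) and the chemokine gene Ccl5 to Il1rn (0.93). Among the other members, the closest genes were Ak3 for Il18 (0.84), Tmem88b for Il33 (0.87), Maml2 for Il1r1 (0.85) and Plekha1 for Il1rap (0.87).

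The rest of the pathway was described by lists of its other ligands, receptors, signalling proteins, processing enzymes and induced genes. None of the 5 other ligands (the interleukin-36 genes and Il1f10) passed the filter on low counts, and 5 of 7 other receptors did. Of these, Il1rl2, the interleukin-36 receptor, rose with genotype in sham slices under BD10-2 from 0.549 ± 0.0224 (SD, n = 3) to 1.33 ± 0.218 CPM (SD, n = 5), a log2 fold change of 1.27 (edgeR adjusted p = 0.00621). Of the 5 other receptors tested, 0, 1, 1 and 1 were called higher in T41B mice, against 5.0%, 4.74%, 4.31% and 8.19% of all genes, in the order sham vehicle, stimulated vehicle, sham BD10-2 and stimulated BD10-2, which is also the order of the genotype counts below.

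Of 15 signalling genes, all tested, 3, 3, 0 and 5 were called higher in T41B mice and none lower, with median log2 fold changes of 0.13, 0.03, 0.18 and 0.10. The medians of all genes were 0.0014, -0.026, 0.0071 and -0.02, and 5.0%, 4.74%, 4.31% and 8.19% of them were called higher. Myd88, the adaptor of the receptor complex, rose in stimulated slices under BD10-2 from 12.7 ± 1.63 (SD, n = 3) to 30.1 ± 9.10 CPM (SD, n = 5; here and below ± is the SD over the mice of a group; log2 fold change 1.24, edgeR adjusted p = 3.52e-05), and Irak2, a kinase recruited by it, from 22.2 ± 2.75 to 36.6 ± 3.37 CPM (0.72, edgeR adjusted p = 6.63e-06). Irak3, an inhibitor of the complex, rose there by 0.80 (edgeR adjusted p = 0.0355), and Irak4 by 0.97 in sham slices on vehicle (edgeR adjusted p = 0.0249). After stimulation 3, 5, 4 and 5 of the 15 were called higher and 1, 2, 1 and 1 lower, in the order vehicle wild-type, vehicle T41B, BD10-2 wild-type and BD10-2 T41B. Over all genes 8.21%, 11.7%, 6.29% and 13.3% were called higher and 4.10%, 9.83%, 2.58% and 9.52% lower.

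Of 11 processing genes, 7 were tested, and 4, 4, 4 and 6 were called higher in T41B mice, with median log2 fold changes of 1.08, 0.98, 1.07 and 1.55, where 5.0%, 4.74%, 4.31% and 8.19% of all genes were called higher. Nlrp3, the inflammasome sensor, rose in stimulated slices under BD10-2 from 28.9 ± 5.56 to 91.2 ± 20.7 CPM (log2 fold change 1.66, edgeR adjusted p = 8.37e-07). Gsdmd, whose product forms the pore through which interleukin-1 beta leaves the cell, rose by 1.87 (edgeR adjusted p = 5.27e-05), Casp4 by 1.57 (edgeR adjusted p = 0.000158) and Casp1, the converting enzyme, by 1.55 (edgeR adjusted p = 0.00392). Casp1 was not called in the other comparisons, with 0.04 in sham slices on vehicle, 0.91 in stimulated slices on vehicle and 0.23 in sham slices under BD10-2. The stimulation contrast divided this list. Nlrp3 and Casp4 were called higher in all 4 stimulation comparisons, for Casp4 from 3.22 ± 0.403 to 14.7 ± 5.69 CPM in BD10-2-treated T41B mice. Pycard, the adaptor between sensor and caspase, was called lower in all 4, from 3.32 ± 0.607 to 0.435 ± 0.0303 CPM in vehicle-treated T41B mice, and Casp1 was called lower in both wild-type comparisons. Calls numbered 2, 3, 2 and 3 higher and 2, 2, 2 and 2 lower among the 7, against 8.21%, 11.7%, 6.29% and 13.3% of all genes higher and 4.10%, 9.83%, 2.58% and 9.52% lower.

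Genes known to be induced by interleukin-1, 16 in number and all tested, were called higher in T41B mice in 7, 13, 9 and 12 cases and lower in 0, with median log2 fold changes of 1.13, 1.03, 1.25 and 1.25. Over all genes 5.0%, 4.74%, 4.31% and 8.19% were called higher, with medians of 0.0014, -0.026, 0.0071 and -0.02. Il6, a cytokine, rose in stimulated slices under BD10-2 from 9.76 ± 3.21 (SD, n = 3) to 68.0 ± 35.4 CPM (SD, n = 5), a log2 fold change of 2.81 (edgeR adjusted p = 2.67e-05). Ptgs2, the inducible cyclooxygenase, rose there from 118 ± 39.9 to 476 ± 218 CPM (2.02, edgeR adjusted p = 0.000243), whereas in sham slices it differed by -0.14 and -0.26 and was not called. The neutrophil chemokine gene Cxcl2 rose by 1.91 in sham slices on vehicle (edgeR adjusted p = 0.0164), and Lcn2, an iron-binding acute-phase gene, by 2.67 in sham slices under BD10-2 (edgeR adjusted p = 0.000458). After stimulation 15, 16, 14 and 16 of the 16 were called higher, against 8.21%, 11.7%, 6.29% and 13.3% of all genes. Csf3 went from 0.492 ± 0.201 to 24.9 ± 6.72 CPM in vehicle-treated T41B mice, and Cxcl2 from 2.21 ± 0.691 to 94.9 ± 29.6 CPM in BD10-2-treated wild-type mice. Sele and Steap4 had log2 fold changes of 4.78 in BD10-2-treated T41B and 5.20 in vehicle-treated wild-type mice. The lists were compiled with earlier results of these data known, so their direction is no independent evidence, and other signals also induce these genes.

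**Figure D5:**
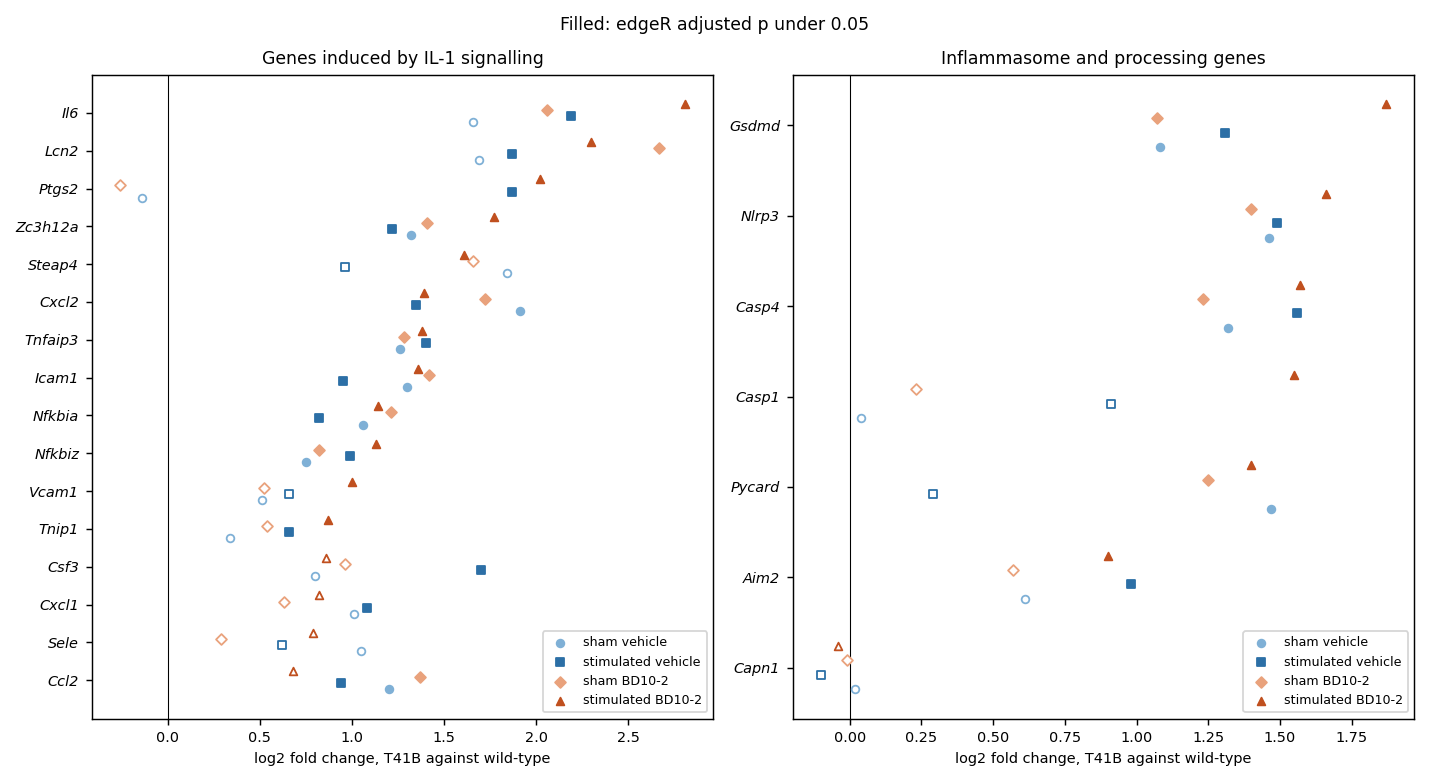
Log2 fold change of T41B against wild-type for the 16 induced genes (left) and the 7 tested processing genes (right), 1 symbol per combination of stimulation and treatment, filled where the edgeR adjusted p was under 0.05. Most symbols lie right of 0, those of Capn1 scatter around it, and Ptgs2 lies left of 0 in both sham comparisons (-0.14 and -0.26).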

How the data were processed

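Total RNA (200 ng, ribosomal RNA removed, stranded kit) from hippocampal slices was sequenced. The submitters' processing notes name cutadapt 1.8.1, STAR 2.7.6a, RSEM 1.3.1, featureCounts 1.6 and SAMtools 1.11 with GRCm38.p6 (mm10). The strand setting of the counting is not given in the sources used here. The authors deposited expected counts per gene, an estimate by RSEM of reads per gene, of which 5.7% of the table's cells held decimals; these were rounded to whole numbers. The table named 55154 of 55421 gene identifiers. For 4 pairs of libraries with the same mouse and stimulation labels the counts were added, which left 32 samples, with 3 to 5 mice per group. That the libraries of a pair are repeats of 1 slice rests on these labels.

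Genes were filtered with edgeR's filterByExpr (minimum count 10), scaled by TMM (factors 0.9095 to 1.063) and fitted over all 8 groups with edgeR 4.0.16 quasi-likelihood models, 1 coefficient per group, in R 4.3.3. In 15 comparisons p-values were adjusted by Benjamini-Hochberg over all 19478 genes, and a gene was called at an adjusted p under 0.05. Alternatives used limma 3.58.1 and DESeq2 1.42.0. The antagonist-to-agonist ratio was compared by an exact permutation test over all splits of the mice, and scipy 1.17.1 gave the counting intervals. The scripts were tested on simulated counts.

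Deviations from group means correlated between both slices of a mouse by 0.205 on average (0.0224 to 0.411) over 14 mice against -0.0552 over 52 pairs of different mice, and the pairing comes from the mouse number in the labels. The mouse was therefore a replicate block in an alternative fit. The 9 members and the gene lists were chosen with earlier results of these data known. All 9 members are named. From each list up to 4 genes per kind of comparison are named, taking the called genes of mean 1 CPM or more with the largest absolute change. Il18rap, Ptgs2 in sham slices and Pycard, Nlrp3, Casp4 and Casp1 across comparisons were added after their values were seen. Likeness was Pearson's r, over genes averaging at least 1 CPM. Each group's n counts mice, and within a mouse only 1 slice per state was measured. Library depth, 11597555 to 28125842 counts, puts 3 counts or fewer of Il1rn in 7 samples, of Il1r2 in 8 and of Il1b in 2.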

Additional observations from a re-analysis of the deposited data

Results flagged for a closer look

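In 54 sets of 4 or 5 mice (a gene in a group), 3 held a value far from the rest, judged by its gap to the nearest value over the whole range; chance flags about 1 in 20 sets. Il33 was 75.1 CPM in the stimulated slice of Mouse1551, a T41B mouse on vehicle, where the next value was 57.9 CPM (gap over range 0.887). Il1r1 was 24.5 CPM in the sham slice of the same mouse, and the next value was 15.3 CPM (0.884). Il1r2 was 0.825 CPM in the stimulated slice of Mouse1553, also T41B on vehicle, and the next value was 0.39 CPM (0.857).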

How the results depend on the processing

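In stimulated slices the count of members called by genotype, 3 under either treatment, ranged from 2 to 3 under vehicle and from 2 to 4 under BD10-2 over the alternatives and left-out mice. In sham slices under vehicle the count of 2 became 1, by loss of Il1rn, without TMM, in a fit of the compared groups alone and with mouse as a random replicate block in limma-voom, and ranged from 1 to 3 with a mouse left out. In sham slices under BD10-2 the count of 1 became 2 in the compared groups alone and by DESeq2, and 0 with the random replicate block, with batch as a covariate and without one sham library of Mouse1565. It ranged from 0 to 1 with a mouse left out. Blocking on mouse (replicate block) gave stimulation counts of 3, 4, 3 and 7 against 3, 4, 3 and 5, and interaction counts of 0. The log2 Il1rn-to-Il1b ratio differed between genotypes on vehicle by -0.36 to 0.02 (0.02 without Mouse1579) and between treatments in T41B mice by -0.31 to 0.19 (0.00 without Mouse1510, 0.08 without Mouse1551, 0.19 without Mouse1592). With a mouse left out, the genotype difference under BD10-2 ranged from -0.56 to -0.19 (without Mouse1592) and the treatment difference in wild-type mice from 0.01 (without Mouse1524) to 0.31 (without Mouse1522). The cause was not tested. Over all genes, calls higher and lower by stimulation were 1599 and 798 in vehicle wild-type mice, 1259 and 1136 without TMM, 1493 and 424 without the filter and 2253 and 1653 with the replicate block. They were 2598 and 1855 in BD10-2 T41B mice, and 2123 and 3254 without TMM, where the median log2 fold change shifted to -0.121. In vehicle T41B mice they were 2283 and 1914, and 1697 and 885 in the compared groups alone. Without TMM they were 2032 and 2383 there, and 2861 and 2882 with the replicate block. Genotype calls in the compared groups alone were 518 and 19 against 973 and 242 (sham vehicle), 1201 and 530 against 839 and 223 (sham BD10-2) and 1105 and 135 against 1596 and 460 (stimulated BD10-2), and with batch as a covariate 331 and 21 in sham vehicle slices. Where edgeR called 0 genes, DESeq2 called 23 for BD10-2 in stimulated wild-type slices and 1, 19 and 1 for the interactions, none of them members. Low sham counts of Il1rn, Il1b and Il1r2 limit their fold changes.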
